A study of Homo sapiens with 12 samples.

Results

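The 4 libraries described here came from HL-60 cells that had been treated with decitabine and were taken at 72 h or at 120 h, with 2 libraries at each time. They were picked by their labels of treatment and time, with earlier results of these data known, from 12 labelled libraries of which 11 had values. HL-60 is an established human promyelocytic leukaemia line, and every group was of the wild-type genotype, so all results are those of a single line. Cells were seeded at 100000 per mL in duplicate wells, and decitabine was added at 100 nM at 0, 24 and 48 h. RNA at 72 h was therefore taken 24 h after the last dose and RNA at 120 h was taken 72 h after it, so the comparison follows treated cells once dosing had ended. Cells given DMSO, the vehicle, and sampled at 72 h (1 library with values) and at 120 h (2 libraries) show the same interval without the drug. The fit across genes also took in decitabine and DMSO cells from 6 h, after the first dose, with 2 libraries each. Total RNA was depleted of ribosomal RNA and read as stranded single-end reads of 50 bp. The wells are not said to be separate cultures, and the tests below thus measure the spread between these libraries, part of which may be technical.

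Decitabine is a deoxycytidine analogue that is built into replicating DNA, where it traps DNA methyltransferases, so that methylation is lost as cells divide. Promyelocytes are granulocyte precursors that make primary granules, and they stop dividing as they mature into neutrophils, eosinophils or basophils. Mature granulocytes carry the integrin and complement receptors used for adhesion and uptake of microbes, the phagocyte NADPH oxidase that makes superoxide, and granule proteins that differ between the lineages. HL-60 cells are widely used for such maturation, since several drugs push them towards neutrophil-, eosinophil- or monocyte-like states.

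Values below are the authors' normalised values, given for replicate 1 and then replicate 2, and fold changes are differences of mean log2(value + 1), 120 h minus 72 h, with the limma test over all 16152 genes tested. Estimated depth was 18459186 to 23059683 counts in the 4 libraries. The 72 h pair stood apart from the other pairs. Its libraries differed by a median absolute log2 difference of 0.59, against 0.19 to 0.26 in the other 4 pairs, and replicate 2 was lower than replicate 1 the higher the GC content of a gene (Spearman rho -0.302 across 15879 genes, against -0.0444 to 0.0306 in the other pairs). Median differences ran from 0.38 in the lowest to -0.52 in the highest of 10 classes of GC content. The ribosomal RNA gene FP671120.7 took 3.89 to 10.9% of the total in the 120 h libraries and 72 h replicate 1, and 0.106% in 72 h replicate 2. Because of this split, fold changes against 72 h replicate 1 alone are given beside the pooled ones for CLC, EPX and most list medians. For the other genes only pooled values are given, and the 2 can differ in size. Against replicate 1 alone DNMT1 had -0.38 (-0.97 pooled), CDKN1A 0.81 (1.45 pooled) and S100A6 1.84 (1.66 pooled). The promyelocyte genes MPO, ELANE, AZU1, PRTN3, CTSG and CD33 were present in every library, at a sum of 89803 to 141789 at 72 h and 112613 to 122992 at 120 h. CDKN2A, described as deleted in this line, was at 49.1 to 69.9 and so not near 0.

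**Figure D1:**
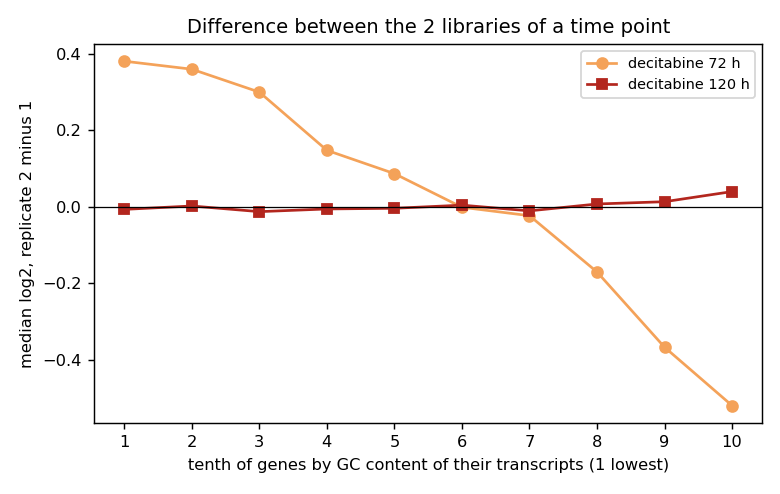
Median difference between the 2 libraries of a time point (replicate 2 minus replicate 1, log2) in 10 equal classes of genes ordered by GC content. The 72 h line runs from 0.38 to -0.52, whereas the 120 h line stays between -0.013 and 0.040.

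From 72 to 120 h, 20 genes rose (0.124% of genes tested) and 1 fell (0.00619%) at an adjusted p under 0.05. The ratios of means of the 20 risen genes were 2.24 to 21.2. Those reported here were the eosinophil proteins CLC and EPX and the surface proteins CR1, ITGAM, ITGA2B, ICAM3, CSF2RB, GPR65, CNR2 and VNN2. Also among them were the oxidase-related NCF1B, the calcium-binding proteins S100A12 and S100A6, and the granule and lysosome proteins BPI, MPEG1 and IFI30. CYFIP2, FGD4 and KCTD12 complete those reported. In each of the 20, both 120 h libraries lay above all other libraries of the series, those of DMSO cells and of 6 h included. The calls rested on few libraries: none was left without either decitabine 120 h library or without any one of the 6 h libraries, 1 gene rose without either DMSO 120 h library, 2483 rose and 2709 fell without 72 h replicate 1, and 27 rose and 8 fell without 72 h replicate 2, sharing 18 of the 21. None was left when libraries were weighted or when the spread came from the 4 libraries alone. The direction of the 21 genes was the same in all alternatives that tested them. In all 21 the libraries of the 2 times did not overlap, so leaving out a library or changing the variance model could not reverse it.

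With the called genes included, 1285 genes were higher and 1371 lower at an unadjusted p under 0.05 (7.96 and 8.49% of genes tested). Libraries of the 2 times did not overlap for 3757 genes that were higher at 120 h (23.3%) and 3463 that were lower (21.4%), which is the background for the counts of separate genes below. With a difference of at least 2-fold as well, the shares were 6.28 and 3.09%. Of all genes tested, 911 were under 10 in both 72 h libraries and passed the filter on low values through other libraries. The median fold change over all genes was 0.034. It moved to 0.21 when libraries were rescaled to their total without FP671120.7 and mitochondrial genes.

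**Figure D2:**
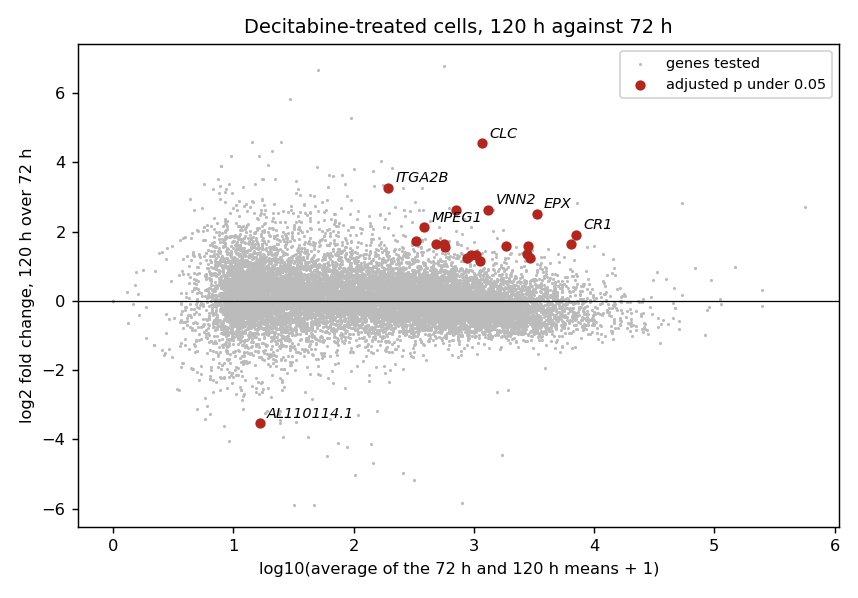
Log2 fold change from 72 to 120 h in decitabine-treated cells against the average level of each gene tested (log10 axis). The 21 called genes are red, and AL110114.1 is the one below 0; many uncalled genes of low level lie as far from 0 as the called ones.

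CLC, which encodes the galectin of Charcot-Leyden crystals and is made by eosinophils and basophils, showed the largest increase of the risen genes. Its values were 154 and 56.0 at 72 h and 2105 and 2333 at 120 h (log2 fold change 4.56, SE 0.45, adjusted p = 0.0247). The 2 times were far apart, although the 72 h libraries differed from each other, and CLC was still 3.84 higher on the log2 scale against 72 h replicate 1 alone. DMSO cells had 17.9 at 72 h and 22.4 and 16.9 at 120 h. EPX, the eosinophil peroxidase, had 1244 and 769.5 at 72 h and 5582 and 5693 at 120 h (log2 fold change 2.52, SE 0.28, adjusted p = 0.0346), and 2.18 against replicate 1 alone. DMSO cells stayed at 68.3 to 92.5, so EPX already stood above them at 72 h and rose further.

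The promoters of the 4 genes with the largest fold changes among the risen ones that RefSeq's table (GRCh38.p14) lists are shown because the methylation that decitabine lowers sits on CpG pairs. Each covers 250 bases before to 50 after the start, 5′ to 3′ on the gene's strand, with CpG pairs in capitals. In CLC the reverse complement of AGATAA (the motif searched on both strands, a GATA-type motif that does not overlap a CpG pair) is also in capitals.
CLC, chr19:39737980-39738279, minus strand: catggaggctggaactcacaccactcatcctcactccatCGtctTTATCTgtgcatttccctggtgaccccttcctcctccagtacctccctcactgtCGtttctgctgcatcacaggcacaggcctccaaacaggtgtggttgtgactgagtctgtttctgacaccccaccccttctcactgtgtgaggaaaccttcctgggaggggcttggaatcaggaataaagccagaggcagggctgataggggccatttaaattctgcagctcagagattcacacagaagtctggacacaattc
ITGA2B, chr17:44389600-44389899, minus strand: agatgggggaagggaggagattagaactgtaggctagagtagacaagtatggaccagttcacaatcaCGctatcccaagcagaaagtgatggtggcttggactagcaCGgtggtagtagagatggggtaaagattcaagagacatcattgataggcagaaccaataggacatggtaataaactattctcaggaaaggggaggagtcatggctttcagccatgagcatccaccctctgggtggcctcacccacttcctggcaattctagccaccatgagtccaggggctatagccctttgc
VNN2, chr6:132763406-132763705, minus strand: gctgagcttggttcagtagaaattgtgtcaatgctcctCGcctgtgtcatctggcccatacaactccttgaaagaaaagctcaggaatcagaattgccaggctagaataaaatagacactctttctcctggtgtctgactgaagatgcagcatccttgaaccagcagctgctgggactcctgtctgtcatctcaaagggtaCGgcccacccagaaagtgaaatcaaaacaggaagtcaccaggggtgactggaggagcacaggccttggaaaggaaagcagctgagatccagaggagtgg
ITGAM, chr16:31259725-31260024, plus strand: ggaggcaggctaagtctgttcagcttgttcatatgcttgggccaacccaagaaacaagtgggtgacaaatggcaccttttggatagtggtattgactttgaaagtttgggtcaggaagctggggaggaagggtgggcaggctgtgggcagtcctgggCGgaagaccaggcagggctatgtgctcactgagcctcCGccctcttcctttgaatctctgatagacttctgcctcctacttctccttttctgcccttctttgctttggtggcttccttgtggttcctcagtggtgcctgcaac
Each of the 4 held 2 CpG pairs, a number reached or undercut by 18.2% of all 35116 promoters of this length. Over the 21 promoters listed for 14 of the 20 risen genes the median was 5 pairs (range 1 to 41), against 24 over the promoters of the genes tested that matched and 14 over all promoters of the table. Not all were poor in CpG: S100A6 had 31 and KCTD12 41 pairs, CYFIP2 had 35 and 3 in its 2 promoters, and those of FGD4 ran from 2 to 32. AGATAA was found in 2 of the 21 promoters (9.52%), those of CLC and CNR2, against 6.08% of promoters of the genes tested and 10.3% of all promoters. The data hold no methylation values, so these sequences are a description only.

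Several other eosinophil genes were higher at 120 h without passing the test. Of 18 genes of this list that were tested, of 20 listed, 2 rose and 0 fell, and 12 were higher in both 120 h libraries than in either 72 h library. The median fold change was 0.76, and 0.69 against 72 h replicate 1 alone. PRG3, a homologue of the granule major basic protein, had 96.9 and 52.5 at 72 h and 448 and 444 at 120 h (log2 fold change 2.63, SE 0.39, adjusted p = 0.0693). SIGLEC8, an inhibitory lectin of eosinophils, had 24.7 and 17.7 at 72 h and 174 and 158 at 120 h (log2 fold change 2.93, SE 0.61, adjusted p = 0.134). Both genes had separate libraries at the 2 times but were low at 72 h. IL5RA, the receptor chain for interleukin 5, had 244 and 218 at 72 h and 802 and 828 at 120 h (adjusted p = 0.178). ALOX15, an arachidonate lipoxygenase abundant in eosinophils, had 5.41 and 5.31 at 72 h and 81.1 and 41.9 at 120 h (adjusted p = 0.141). Both 120 h libraries of ALOX15 lay above the rest but differed from each other. It was the 1 tested gene of the list under 10 in both 72 h libraries. ALOX15 passed the filter (10 in 2 libraries) only through the 120 h pair, so its separation is no support for a rise. PRG2, the major basic protein itself, had 67657 and 81829 at 72 h and 108091 and 118412 at 120 h (log2 fold change 0.60, SE 0.17, adjusted p = 0.209). Its libraries did not overlap between the times, and all 4 lay above those of DMSO cells, at 16506 at 72 h and 13438 and 14471 at 120 h. The eosinophil ribonucleases RNASE2 and RNASE3 were also separate, with fold changes of 0.95 and 1.11 (adjusted p = 0.25 and 0.257). HDC, which makes histamine, had 55.9 and 54.9 at 72 h and 103 and 108 at 120 h, and CPA3, a mast cell protease, had 70.2 and 64.6 at 72 h and 78.5 and 73.6 at 120 h. HDC and CPA3 were separate, CPA3 by little. GATA2, a factor of mast cells and basophils, had a fold change of 0.18 (adjusted p = 0.62). Not all of the list was higher: MS4A3 had 9423 and 22020.0 at 72 h and 11022 and 10736 at 120 h, with both 120 h libraries inside the 72 h range. In bulk RNA a larger share of cells of one kind and more RNA per cell cannot be told apart.

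The late neutrophil genes had a median fold change of 1.09. Of 37 tested of 40 listed, 4 rose and 0 fell, and 32 were higher (86.5%) and 1 lower in both 120 h libraries than in either 72 h library. Of the higher ones, 19 differed at least 2-fold. Of the 37, 3 were under 10 in both 72 h libraries and passed the filter on low values through other libraries. The median was 0.85 against 72 h replicate 1 alone and -0.24 between the same times in DMSO cells. ITGAM, VNN2 and S100A12 were among the risen genes. ITGAM encodes CD11b, the alpha chain of the integrin and complement receptor Mac-1 and a standard marker of myeloid maturation. It had 206 and 189.8 at 72 h and 1133 and 1321 at 120 h (log2 fold change 2.62, SE 0.24, adjusted p = 0.0247), with close replicates at both times. At 72 h ITGAM was at the level of DMSO cells, which had 192 at 72 h and 211 and 328 at 120 h, so that it differed from DMSO cells at 120 h but hardly at 72 h. Its partner chain ITGB2 had 3855 and 1898 at 72 h and 5674 and 5813 at 120 h (adjusted p = 0.195). VNN2, a membrane-bound pantetheinase of neutrophils, had 478 and 278 at 72 h and 2308 and 2218 at 120 h (log2 fold change 2.63, SE 0.32, adjusted p = 0.0346).

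CR1, the receptor for the complement fragments C3b and C4b, had the smallest p of all genes. It had 3199 and 2710.1 at 72 h and 11942 and 10259 at 120 h (log2 fold change 1.91, SE 0.17, adjusted p = 0.0247), and DMSO cells stayed at 713 to 800.2. ICAM3, an adhesion molecule of resting leukocytes, had 643 and 544 at 72 h and 1462 and 1533 at 120 h (log2 fold change 1.34, SE 0.16, adjusted p = 0.0346). FPR1, a receptor for bacterial formyl peptides, had 63.6 and 38.7 at 72 h and 221 and 231 at 120 h without passing (log2 fold change 2.16, SE 0.33, adjusted p = 0.0719). MMP9, the gelatinase of tertiary granules, had 58.1 and 28.3 at 72 h and 227 and 223 at 120 h (adjusted p = 0.215). For all of these the 2 times were separate. LTF, lactoferrin of the specific granules, had 34.7 and 11.7 at 72 h and 9.73 and 13.1 at 120 h, and MMP8, the neutrophil collagenase, had 5.04 and 4.27 at 72 h and 2.97 and 2.36 at 120 h, both at low values (adjusted p = 0.444 and 0.573). For LTF the 72 h libraries overlapped those at 120 h.

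Among genes of the phagocyte oxidase, NCF1B, a near-identical pseudogene copy of the subunit gene NCF1, rose from 526 and 509 to 1314 and 1159 (log2 fold change 1.25, SE 0.17, adjusted p = 0.0491), but reads of the 2 copies can be split by the counting, so its value is uncertain. NCF1 itself, the subunit p47, had 942 and 1309 at 72 h and 2490.3 and 2394 at 120 h (adjusted p = 0.199). CYBB, the membrane subunit that carries the electrons, had 11171 and 10992 at 72 h and 18443 and 18604 at 120 h (log2 fold change 0.74, SE 0.14, adjusted p = 0.111), a difference larger than the spread of either pair that did not pass. NCF4 and CYBA, further subunits, had fold changes of 0.77 and 0.65 (adjusted p = 0.199 and 0.323). These 5 genes were higher in both 120 h libraries than in either 72 h library.

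S100A12, a secreted calcium-binding protein of granulocytes, rose from 1482 and 1631 to 3878 and 4076 (log2 fold change 1.35, SE 0.14, adjusted p = 0.0294). S100A6, which is made in many cell types, rose from 2722 and 3521 to 10952 and 8725 (log2 fold change 1.66, SE 0.21, adjusted p = 0.0368). DMSO cells had 318 at 72 h and 281 and 376 at 120 h, so both times lay far above them. S100A8, a subunit of calprotectin, had 6648 and 3654 at 72 h and 14689 and 14804 at 120 h (adjusted p = 0.0899). S100A9, its partner, had 9834 and 7430.5 at 72 h and 18672 and 21015 at 120 h (adjusted p = 0.0699). Neither passed, although both were separate, and the 72 h libraries of S100A8 differed more than those at 120 h.

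**Figure D3:**
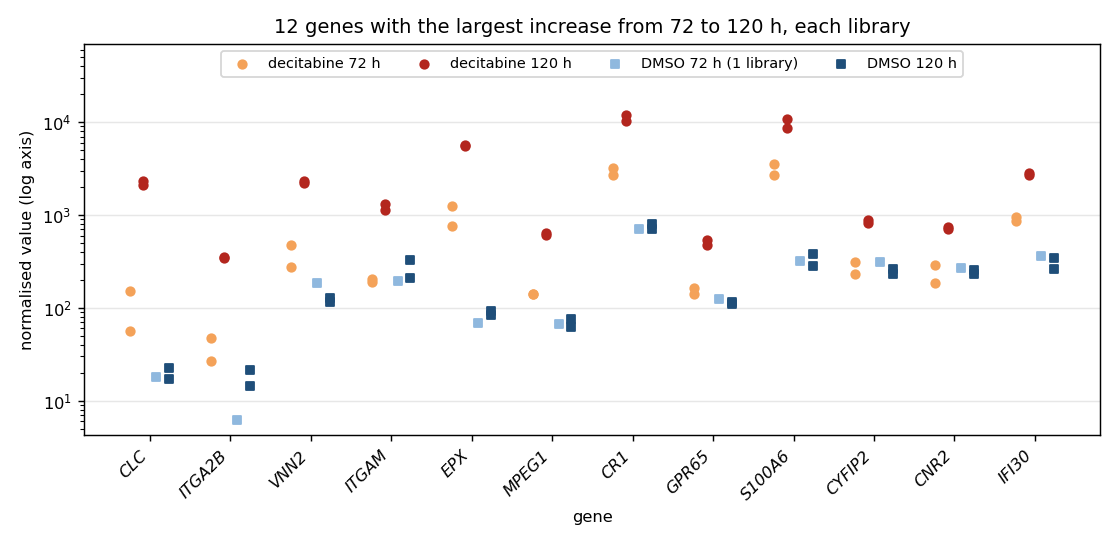
Normalised value (log axis) in each decitabine and DMSO library at 72 and 120 h for the 12 risen genes with the largest fold changes. Red points (decitabine 120 h) lie above all others for each gene, and ITGAM, CYFIP2 and CNR2 at 72 h lie near the DMSO cells.

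Further receptors rose. ITGA2B, the integrin alpha chain of platelets and megakaryocytes, went from 26.4 and 46.7 to 352 and 346 (log2 fold change 3.28, SE 0.39, adjusted p = 0.0346). It was the only risen gene of the erythroid and megakaryocyte list, in which 8 of 28 genes passed the filter on low values. DMSO cells were also higher at 120 h, with 6.17 at 72 h and 14.5 and 21.4 at 120 h, though far below the treated cells. GATA1, the erythroid, megakaryocyte and eosinophil factor, had 55.5 and 34.3 at 72 h and 81.5 and 80.1 at 120 h (log2 fold change 0.87, SE 0.75, adjusted p = 0.552) and was listed at 0 in the DMSO libraries of both times. GFI1B had 42.4 and 35.7 at 72 h and 101 and 108 at 120 h (adjusted p = 0.197). HBA1, HBB and ALAS2, the defining erythroid genes, were at 0 in all 4 libraries. CSF2RB, the chain shared by the receptors for interleukins 3 and 5 and for GM-CSF, rose from 601 and 485 to 1337 and 1359 (log2 fold change 1.32, SE 0.17, adjusted p = 0.0401). GPR65, a proton-sensing receptor, rose from 163 and 140.4 to 476 and 537 (log2 fold change 1.74, SE 0.22, adjusted p = 0.0368), and its 72 h libraries lay a little above those of DMSO cells, which had 125 at 72 h and 115 and 109 at 120 h. CNR2, the cannabinoid receptor of immune cells, rose from 290.0 and 185 to 710.0 and 739 (log2 fold change 1.64, SE 0.22, adjusted p = 0.0491). Its 72 h values spanned those of DMSO cells at 72 and 120 h. Among cytoskeleton genes, CYFIP2, a subunit of the WAVE complex that drives actin branching, rose from 311 and 233 to 878 and 815 (log2 fold change 1.65, SE 0.19, adjusted p = 0.0346). At 72 h it was no higher than in the DMSO library of that time, at 314. FGD4, an exchange factor for CDC42, rose from 668 and 725 to 1491 and 1628 (log2 fold change 1.16, SE 0.16, adjusted p = 0.0491). KCTD12, known as an auxiliary subunit of GABA-B receptors, rose from 351 and 243 to 833 and 875 (log2 fold change 1.55, SE 0.20, adjusted p = 0.0417). In FGD4 and KCTD12 the 72 h libraries already lay above those of DMSO cells.

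BPI, which kills Gram-negative bacteria, was the risen gene among 14 primary granule genes tested. It had 1725 and 1158 at 72 h and 4058 and 4363 at 120 h (log2 fold change 1.57, SE 0.20, adjusted p = 0.0401). The proteases and the peroxidase made at the promyelocyte stage did not pass. MPO had 134815 and 86061 at 72 h and 116822 and 106597 at 120 h (adjusted p = 0.936), and ELANE, neutrophil elastase, had 456 and 156 at 72 h and 368 and 397 at 120 h (adjusted p = 0.519), with both 120 h libraries inside the 72 h range for each. CTSG, cathepsin G, had 1214 and 1346 at 72 h and 1041 and 977 at 120 h (adjusted p = 0.341). Both 120 h libraries of CTSG were below those at 72 h. LYZ, lysozyme, had 223238 and 221653 at 72 h and 274384 and 277087 at 120 h (adjusted p = 0.425). The list's median, 0.52 against both 72 h libraries, was -0.013 against replicate 1 alone, so its sign depended on that library.

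2 risen genes belong to the uptake and breakdown of microbes. MPEG1, a pore-forming protein of phagosomes, had 143 and 142 at 72 h and 608 and 645 at 120 h (log2 fold change 2.13, SE 0.21, adjusted p = 0.0247). IFI30, a lysosomal thiol reductase that prepares antigens, had 962 and 873 at 72 h and 2701 and 2829 at 120 h (log2 fold change 1.59, SE 0.18, adjusted p = 0.0346). Of 33 lysosome and autophagy genes tested, 0 passed (14 higher and 1 lower at an unadjusted p under 0.05), 21 were higher and 1 lower with separate libraries, and the median was 0.51 (0.39 against replicate 1 alone). CTSS, a cathepsin of antigen-presenting cells, had 1780.0 and 1687 at 72 h and 3418 and 3584 at 120 h (log2 fold change 1.01, SE 0.14, adjusted p = 0.0564). CTSD, another cathepsin, had 1384 and 537 at 72 h and 2087 and 2082 at 120 h (adjusted p = 0.204), and its 72 h libraries were far from each other. Of 19 monocyte and macrophage genes tested, 0 passed (8 higher and 1 lower at an unadjusted p under 0.05), and 14 were higher and 3 lower with separate libraries. CD14, the endotoxin co-receptor, had 61.5 and 22.9 at 72 h and 112 and 123 at 120 h (adjusted p = 0.237). FCN1, a ficolin of monocytes, had 214 and 174 at 72 h and 411 and 442 at 120 h (adjusted p = 0.111). Both were separate between the times.

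Regulators of maturation and growth arrest were higher at 120 h in part, with no call. Of 29 myeloid transcription factors tested (9 higher and 1 lower at an unadjusted p under 0.05), 17 were higher and 3 lower with separate libraries. The median of 0.87 was 0.31 against replicate 1 alone. MXD1, which competes with MYC for MAX, had 1268 and 1037 at 72 h and 2640.3 and 2786 at 120 h (log2 fold change 1.24, SE 0.19, adjusted p = 0.0719). ID2, an inhibitor of helix-loop-helix factors, had 507 and 237 at 72 h and 1154 and 1008 at 120 h (log2 fold change 1.63, SE 0.33, adjusted p = 0.122). The 120 h libraries of MXD1 and ID2 were close to each other and above both 72 h ones. BCL6, a repressor, had 316 and 184 at 72 h and 669 and 658 at 120 h (adjusted p = 0.185). IRF8, which favours monocytes over granulocytes, had 294 and 379 at 72 h and 176 and 191 at 120 h (log2 fold change -0.86, SE 0.17, adjusted p = 0.122), and DMSO cells had 949 at 72 h and 1030.1 and 1008 at 120 h. IRF8 was thus lower than in DMSO cells already at 72 h. MYC had 3872 and 2839 at 72 h and 3444 and 3033 at 120 h (log2 fold change -0.037, SE 0.18, adjusted p = 0.93) and DMSO cells had 11409.9 at 72 h and 14185 and 13099.7 at 120 h, so MYC at 120 h stayed within its 72 h range and below the DMSO libraries. Its sign changed with the scaling. MYB, a factor of precursor cells, had 8608 and 17264 at 72 h and 8117 and 7759 at 120 h (adjusted p = 0.327), with one 72 h library far above the rest.

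Of 16 cell-cycle inhibitor and quiescence genes, 0 passed (4 higher and 0 lower at an unadjusted p under 0.05), and 10 were higher and 3 lower with separate libraries. CDKN1A, which encodes p21, had 54.3 and 21.8 at 72 h and 98.7 and 93.1 at 120 h (log2 fold change 1.45, SE 0.44, adjusted p = 0.216). CDKN2B, p15, had 102 and 112 at 72 h and 249.6 and 231 at 120 h (adjusted p = 0.241), and BTG2, an antiproliferative gene, had 217 and 150.4 at 72 h and 418 and 374 at 120 h (adjusted p = 0.176). The 3 genes were also above DMSO cells at both times.

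The 1 gene that fell was AL110114.1, a clone-named gene of unstated function. It had 30.9 and 28.3 at 72 h and 1.52 and 1.78 at 120 h (log2 fold change -3.53, SE 0.46, adjusted p = 0.0401). It was at 37.4 and 32.2 in decitabine cells at 6 h and at 0.873 to 1.87 in all DMSO libraries, so that at 120 h it was back at the level of DMSO cells. The 12 lower genes named by the rule (separate libraries and a mean of at least 50 at 72 h, in order of p) had adjusted p-values of 0.0699 to 0.111 and did not pass. TNKS1BP1, a tankyrase-binding protein, had 170.3 and 264 at 72 h and 70.5 and 77.1 at 120 h (log2 fold change -1.51, SE 0.23, adjusted p = 0.0699). BCAT1, which transaminates branched-chain amino acids, had 1887 and 2906 at 72 h and 897 and 899 at 120 h (log2 fold change -1.38, SE 0.21, adjusted p = 0.0719), and DMSO cells had 4137 at 72 h and 4259.7 and 5238 at 120 h. The chemokine receptor CCR2 had 71.2 and 66.2 at 72 h and 28.7 and 23.0 at 120 h (log2 fold change -1.38, SE 0.22, adjusted p = 0.0719). In these 3 the libraries at 120 h were alike and below both at 72 h. F13A1, a coagulation factor chain, had 56.3 and 77.6 at 72 h and 24.0 and 20.4 at 120 h (log2 fold change -1.54, SE 0.26, adjusted p = 0.0972). SLC7A2, a transporter of cationic amino acids, had 367 and 522 at 72 h and 190.0 and 204 at 120 h (log2 fold change -1.15, SE 0.19, adjusted p = 0.0947). ACACA, the acetyl-CoA carboxylase that commits carbon to fatty acids, had 839 and 857 at 72 h and 503 and 519.8 at 120 h (log2 fold change -0.73, SE 0.14, adjusted p = 0.111). Each of these 6 was below DMSO cells at 72 h and further below them at 120 h. MYOF, SLC25A4, TNS3, MATK and RBBP9 had fold changes of -1.44, -1.44, -1.50, -0.90 and -1.33. The small nucleolar RNA SNORD116-5, at 164 and 20.1 at 72 h, was listed at 0 in both 120 h libraries of either treatment, so no fold is given.

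**Figure D4:**
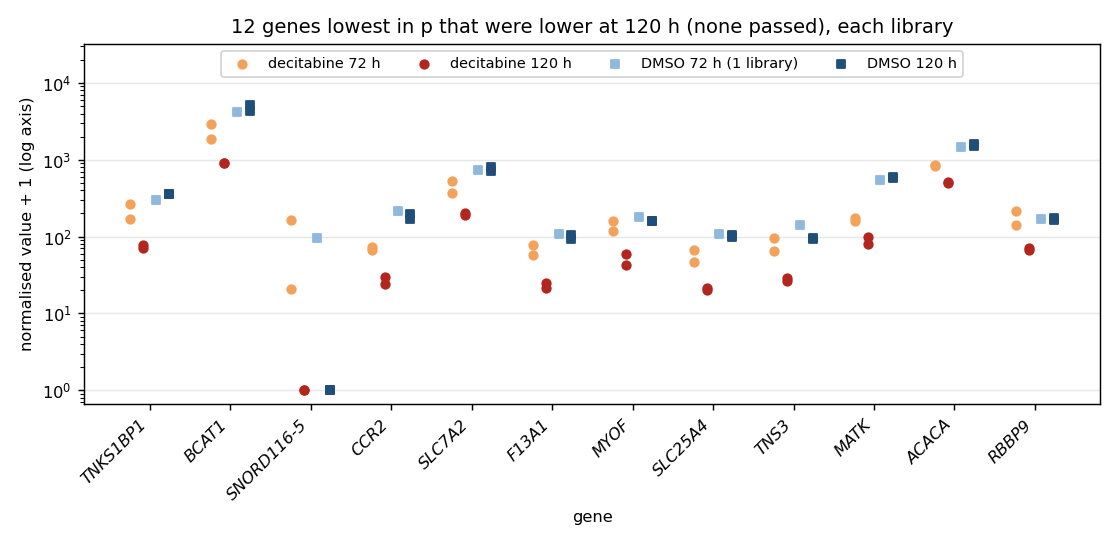
Normalised value + 1 (log axis) in each decitabine and DMSO library at 72 and 120 h for 12 genes lower at 120 h. They are those of lowest p among lower genes with separate libraries and a mean of at least 50 at 72 h. Clone names were left out, and none of the 12 passed the test. Red points (decitabine 120 h) lie below those at 72 h for each gene, and SNORD116-5 is at 0 at 120 h in both treatments.

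No gene of the proliferation lists passed, but many had separate libraries in the same direction. At an unadjusted p under 0.05, 21 replication, 11 mitotic and 19 ribosome biogenesis genes were lower and 0, 0 and 0 were higher. Of 41 DNA replication genes, 29 (70.7%) were lower in both 120 h libraries and 0 higher, with a median of -0.43 (-0.44 against 72 h replicate 1 alone, -0.019 in DMSO cells). CDC6, which loads the replicative helicase, had 2309.6 and 4367 at 72 h and 1412 and 1149.6 at 120 h (log2 fold change -1.32, SE 0.30, adjusted p = 0.148). RRM2, a subunit of ribonucleotide reductase, had 3469 and 9088 at 72 h and 2683 and 2376 at 120 h (adjusted p = 0.238), and the helicase subunit MCM2 had 1829 and 2368 at 72 h and 1264 and 1026 at 120 h (adjusted p = 0.155). In all 3 the 72 h libraries differed and both lay above those at 120 h. Of 39 mitotic genes, 25 were lower and 0 higher with separate libraries. Their median of -0.41 was -0.14 against replicate 1 alone and -0.58 against replicate 2 alone. BUB1B, a spindle checkpoint kinase, had 3086 and 6082 at 72 h and 2246 and 2339 at 120 h (log2 fold change -0.92, SE 0.28, adjusted p = 0.217). MKI67, the common mark of cycling cells, had 8024 and 9170.1 at 72 h and 9373 and 7749 at 120 h (adjusted p = 0.985) and did not separate. Its sign changed with the scaling. DMSO cells had 4554 at 72 h (1 library) and 8627 and 7524 at 120 h, so both treated libraries at 72 h lay above the DMSO library of that time.

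Genes of ribosome biogenesis leaned the same way. Of 31, 0 passed, 25 were lower and 1 higher with separate libraries, and the median was -0.58 (-0.36 against replicate 1 alone). PES1, needed to process the large subunit's RNA, had 1431 and 2365 at 72 h and 824 and 1006 at 120 h (log2 fold change -1.01, SE 0.24, adjusted p = 0.164). NCL, nucleolin, had 11355 and 25619 at 72 h and 9805 and 8883 at 120 h (adjusted p = 0.271), and DMSO cells had 20765 at 72 h and 25402 and 25226 at 120 h. NCL in replicate 2 at 72 h was at the DMSO level, and in the other 3 treated libraries it was below. Of 25 cholesterol and fatty-acid synthesis genes, 14 were lower and 3 higher with separate libraries, with a median of -0.27. When libraries were rescaled to their total without FP671120.7 and mitochondrial genes, the medians were -0.25 for replication, -0.23 for mitosis, -0.40 for ribosome biogenesis and -0.10 for cholesterol and fatty-acid synthesis, against 0.21 for all genes.

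**Figure D5:**
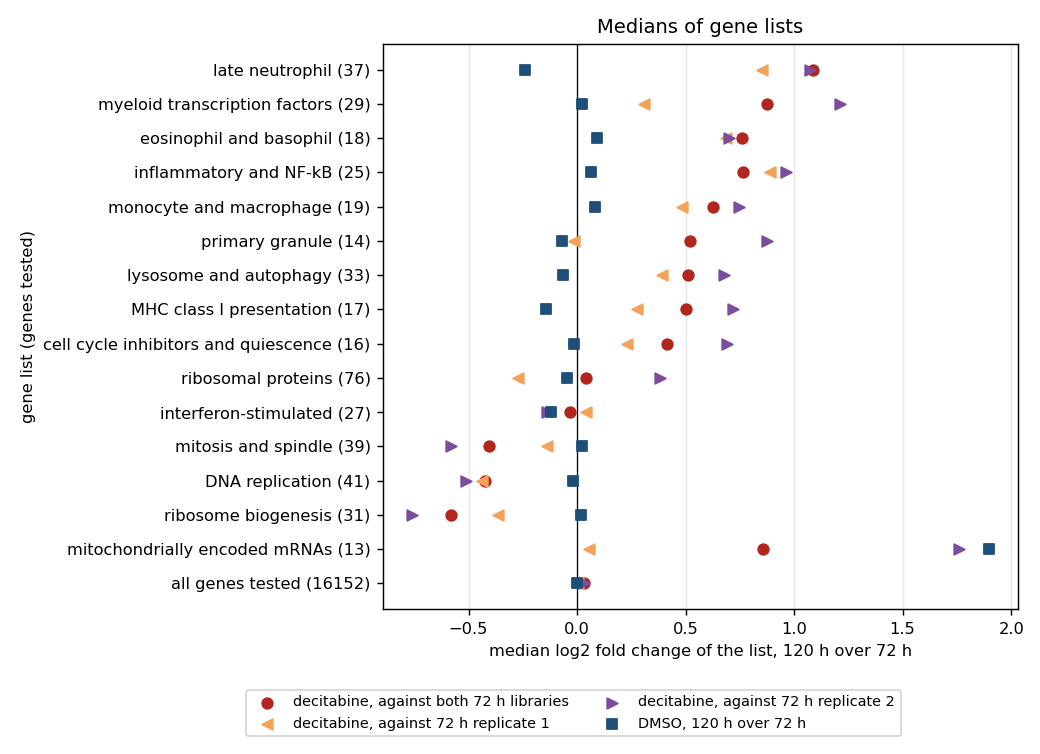
Median log2 fold change from 72 to 120 h of 15 gene lists and of all genes tested, against both 72 h libraries, against each of them alone, and in DMSO cells. The late neutrophil, eosinophil and inflammatory lists lie above 0 against either 72 h library. So do the myeloid transcription factor, monocyte, lysosome, MHC class I, cell cycle inhibitor and mitochondrial mRNA lists. Ribosomal protein genes change sign between the 72 h libraries.

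Leaving out a 72 h library leaves 1 at that time, whose spread is taken from the other groups. Without 72 h replicate 1, what remains is replicate 2. It differed from the 120 h libraries by median absolute log2 differences of 0.62 and 0.63, against 0.31 and 0.30 for replicate 1. No count of list members is read from that fit. The GC trend was measured between the 2 libraries, so it was not assigned to either. Without replicate 2, when 0.17% were called higher and 0.0503% lower, 8 late neutrophil genes were called higher and no gene of the replication, mitosis or ribosome biogenesis lists was called lower.

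Among the targets of the drug, DNMT1, the maintenance methyltransferase, had 7753 and 17387 at 72 h and 5875 and 6000.2 at 120 h (log2 fold change -0.97, SE 0.36, adjusted p = 0.265), with DMSO cells at 6338 at 72 h and 6955 and 9527 at 120 h. Its 120 h libraries were alike and below both 72 h ones, of which replicate 2 stood far above the rest. UHRF1, which brings DNMT1 to replicated DNA, had 2537 and 3187 at 72 h and 1787 and 1713 at 120 h (log2 fold change -0.70, SE 0.16, adjusted p = 0.147), a smaller difference with closer 72 h libraries. The remodeller HELLS had 1777 and 4652 at 72 h and 1347 and 1216 at 120 h (adjusted p = 0.235). Of 16 genes of the methylation machinery, 8 were lower and 3 higher with separate libraries. CDA, which inactivates decitabine, had 94.5 and 44.4 at 72 h and 196 and 166 at 120 h (adjusted p = 0.215). DCK, which activates it, had 2265 and 4245 at 72 h and 2025 and 2040.1 at 120 h (adjusted p = 0.317).

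Of 18 germ cell and meiosis genes tested of 35 listed, 5 were higher and 5 lower with separate libraries, and none passed. DAZL, which binds RNA in germ cells, had 72.7 and 44.9 at 72 h and 86.4 and 101 at 120 h (adjusted p = 0.514). H1-6, the testis linker histone, had 414 and 445 at 72 h and 264 and 284 at 120 h (adjusted p = 0.498). DAZL and H1-6 were separate in opposite directions, both far above DMSO cells, which had 0.887 at 72 h and 0 and 0 at 120 h for DAZL and 0.997 at 72 h and 3.19 and 4.02 at 120 h for H1-6. Of 11 cancer-testis genes tested of 43 listed, 4 were higher and 1 lower with separate libraries. FAM9C had 838 and 2049 at 72 h and 3489 and 3170.3 at 120 h (adjusted p = 0.323), and TKTL1 had 83.1 and 87.9 at 72 h and 233 and 212 at 120 h (adjusted p = 0.262). MAGEB2 had 134 and 131 at 72 h and 82.9 and 101 at 120 h (log2 fold change -0.52, SE 0.40, adjusted p = 0.509), the 1 gene of this list with lower separate values, and DMSO cells were at 2.99 to 7.24.

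Inflammatory genes were higher at 120 h in 17 of 25 cases with separate libraries, and none passed (11 higher and 1 lower at an unadjusted p under 0.05). The median was 0.76, 0.89 against replicate 1 alone and 0.064 in DMSO cells. CXCL8, the chemokine that attracts neutrophils, had 2665 and 1745 at 72 h and 6598 and 5656 at 120 h (adjusted p = 0.0803). CCL2, a monocyte chemokine, had 364 and 197 at 72 h and 832 and 840.2 at 120 h (adjusted p = 0.111). In both the 120 h libraries were alike and above those at 72 h. IL1B, a fever cytokine, had 46.9 and 53.6 at 72 h and 174 and 155 at 120 h (adjusted p = 0.138), and PTGS2, a prostaglandin synthase, had 74.0 and 53.1 at 72 h and 250.3 and 194 at 120 h (adjusted p = 0.148). NFKB1 went the other way, with 616 and 1873 at 72 h and 418 and 427 at 120 h (adjusted p = 0.265). Of 17 genes of MHC class I presentation, 11 were higher and 2 lower with separate libraries. B2M, the light chain, had 11227 and 7838 at 72 h and 15697 and 16069 at 120 h (adjusted p = 0.194). Interferon-stimulated genes did not lean one way: 7 were higher and 10 lower of 27, with a median of -0.032 whose sign changed with the scaling. MX1, an antiviral GTPase, had 23.1 and 45.7 at 72 h and 8.79 and 9.29 at 120 h (log2 fold change -1.74, SE 0.40, adjusted p = 0.158).

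Some lists followed the 72 h libraries. The 13 mitochondrially encoded mRNAs had a median of 0.86, which was 0.053 against replicate 1 alone and 1.76 against replicate 2 alone, and 1.90 in DMSO cells. The 76 ribosomal protein genes had medians of -0.27 and 0.38, and 41 nuclear respiratory chain genes had -0.25 and 0.31, against replicates 1 and 2. These medians changed size or sign with the 72 h library taken, so the lists are given with no direction.

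Markers of other cell types were few. COL3A1 was at 0 in every library, and COL1A1 and COL1A2 with it summed to 0.615 to 3.12 in the 4 libraries. The T cell genes CD3D, CD3E and CD3G summed to 74.8 to 165 at 72 h and 140.2 to 163 at 120 h, with CD3E at 0 to 4.62 and most of the rest from CD3D. The values of CD3D did not order by time, and DMSO cells had 0 at 72 h and 0 and 0.587 at 120 h. GNLY, granulysin of cytotoxic cells, had 83.2 and 38.1 at 72 h and 353 and 403 at 120 h (log2 fold change 2.72, SE 0.53, adjusted p = 0.113). Of 10 lymphoid genes tested, 0 passed, and their median of 0.45 was -0.17 against replicate 1 alone. PECAM1, shared by myeloid and endothelial cells, made up nearly all of the endothelial sum, with CDH5 at 0 to 1.47 and KDR at 0 in the 4 libraries. It had 1087 and 1786 at 72 h and 1804 and 1875 at 120 h, and DMSO cells had 523 at 72 h and 448 and 502 at 120 h. The part of such markers in the results was not tested.

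No change over time was called in DMSO cells. There no gene passed between 72 and 120 h by limma (0 higher, 0 lower), with 395 at an unadjusted p under 0.05 (236 or 1.46% higher, 159 or 0.984% lower). That comparison has 1 library at 72 h, whose spread is taken from the other groups, and it crosses the split in FP671120.7. For the 21 called genes the DMSO fold change was at most 1.38 in size, reached by ITGA2B. The difference between the changes over time with decitabine and with DMSO passed for no gene (0 higher and 0 lower by limma, 1022 at an unadjusted p under 0.05, 602 or 3.73% higher and 420 or 2.6% lower). All 21 had this difference in the direction of their change with an unadjusted p under 0.05 and adjusted p-values of 0.276 to 0.690. The changes of the called genes were thus not shown to differ from those in DMSO cells at the adjusted threshold.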

How the data were processed

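The study measured RNA in HL-60 cells, and 11 of 12 labelled libraries had values. The deposited table holds 60240 genes as normalised signal values, neither whole counts nor scaled to a common total. Per the submitters' processing notes the build was hg38, and DESeq2, STAR, featureCounts, limma and Salmon 1.2.1 were named without a role. Its rows start with an identifier and a symbol, whereas its heading has a single name before the libraries. That name was taken for the symbol, which leaves the last library name without values, because libraries of a group then differed less (mean of median differences 0.299) than those of different groups (0.439), against 0.429 and 0.426 for the other reading. DMSO 72 h replicate 2 is thus not analysed here. Of low values, 66.1 to 68.9% lay within 0.01 of a whole multiple of the library's smallest step (0.407 to 0.961), so reads were not recovered and no count model was used. These steps put depth at 14426776 to 32899769 counts per library, an estimate.

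Values were tested as log2(value + 1) with limma 3.58.1 in R 4.3.3 (trended variance, 6 group means, 5 residual degrees of freedom) over 16152 genes that reached 10 in 2 or more libraries, with Benjamini-Hochberg adjustment and a threshold of 0.05. Fold changes on this scale understate those of low genes. On simulated data with 16152 genes, the test called 15% of the 2-fold and 46% of the 4-fold changes, and 4 unchanged genes. The simulation gave a gene the same spread in all groups. It held neither the wider difference of the 72 h pair nor its GC trend, so these rates may not hold for the real comparison. Named genes were the 12 of largest change per direction among called genes with separate libraries and a mean of at least 50, clone names left out, filled by the smallest p where fewer were called. Called list members and 12 preset genes were added. AL110114.1, GNLY and the other uncalled genes named were chosen after their values were seen. The groups compared, the members and the 34 gene lists were chosen with earlier results of these data known. Promoters came from RefSeq's table, which matched 10419 of the genes tested. Alternatives varied the pseudocount, filter, scaling, variance model, replicate block and each library. A correction for GC content was chosen after seeing the data. A few genes, 1 of the 20 risen ones included, are not reported here.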

Additional observations from a re-analysis of the deposited data

How the results depend on the processing

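All 21 called genes kept their direction in each alternative that tested them. Their libraries did not overlap between the times, so leaving out a library or changing the variance model could not have reversed it. The number called changed. Genes higher and lower numbered 48 and 3 with a pseudocount of 5, 175 and 52 with no filter, 11 and 0 with rescaling to the total without FP671120.7 and mitochondrial genes, 11 and 3 without a variance trend (sharing 6 of the 21), 0 and 0 with sample weights (1384 at an unadjusted p under 0.05), and 0 and 0 with the spread of the groups compared alone (1128). Genes lower numbered 0 with a pseudocount of 0.5, 0 with a filter at 50, 9 with quantile normalisation (29 higher, so 76.3% of calls were higher against 95.2%) and 2 with a GC correction (14 higher). Leaving out 1 library gave 0 to 2483 higher and 0 to 2709 lower genes, the highest without decitabine 72 h replicate 1. Deviations of same-numbered libraries had correlations of -0.078 to 0.124 between groups, which cannot settle whether these libraries were paired. With a replicate block 1 gene was higher and 0 lower, or 7 and 0 with the GC correction as well. In DMSO cells 5 genes were higher and 107 lower with no filter. The difference between treatments gave 6 higher genes with no filter and 1 with no trend, and 0 to 1245 higher and 0 to 1670 lower on leaving out 1 library, the highest again without decitabine 72 h replicate 1. Neither could be fitted without DMSO 72 h. Among uncalled genes, log2 fold changes near 0 changed sign. MYC had 0.16 with quantile normalisation, 0.14 with rescaling to the total and -0.26 to 0.19 on leaving out 1 library. MKI67 had 0.29 with quantile normalisation, 0.00090 with median-ratio rescaling, 0.17 with rescaling to the total and -0.15 to 0.13 on leaving out 1 library. MPO had -0.095 with the GC correction, with or without the replicate block, and -0.27 to 0.37 on leaving out 1 library. CPA3 had -0.014 with quantile normalisation. Leaving out 1 library gave -0.25 to 1.29 for ELANE, -1.02 to 0.21 for MS4A3 and -0.22 to 1.63 for CD3D. The cause was not tested.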
